A study of Arabidopsis thaliana with 6 samples.

Results

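The genes described here act in sulfate assimilation or mark sulfur deficiency in Arabidopsis thaliana. There are 10 of them among the 21430 probe sets of the array, chosen by locus: the ATP sulfurylase genes ATPS1 (probe set AT3G22890_at) and ATPS3 (AT4G14680_at), the adenosine 5′-phosphosulfate reductase genes APR1 (AT4G04610_at), APR2 (AT1G62180_at) and APR3 (AT4G21990_at), the sulfite reductase gene SIR (AT5G04590_at), the adenosine 5′-phosphosulfate kinase genes APK1 (AT2G14750_at) and APK2 (AT4G39940_at), and the deficiency markers SDI1 (AT5G48850_at) and LSU1 (AT3G49580_at). All 10 had a probe set of their own, and all 10 passed the filter on low values (a value of log2 4 or more on 3 or more of the 6 arrays), as did 16210 probe sets in all. LSU1 was the 1 gene of the 10 that did not reach log2 4 on every array, and it did so on 5 of the 6.

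Leaves were taken from soil-grown plants, 6 weeks old and raised in short days at 400 ppm CO2. One group was then placed at 100 ppm CO2 for 24 h (3 arrays), and the other remained at 400 ppm (3 arrays). The series title places the comparison under photorespiratory stress, the state in which Rubisco takes up more oxygen and more of its product has to be recycled. Neither ecotype nor genotype is given in the labels used here, and each array holds RNA from leaves of 4 to 5 plants pooled together. Nothing in the labels says whether the pools of one condition were grown apart, so p-values measure only the spread between these pools. In whole leaves, fewer cells of a type and less RNA per cell cannot be told apart.

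Plants take up sulfate and activate it with ATP, a step carried out by ATP sulfurylase, to give adenosine 5′-phosphosulfate (APS). In the reducing branch, APS reductase turns APS into sulfite, sulfite reductase turns that into sulfide, and O-acetylserine (thiol) lyase joins sulfide to O-acetylserine, made from serine, to give cysteine. In the other branch, APS kinase phosphorylates APS to PAPS, the donor from which sulfotransferases sulfate glucosinolates and other compounds. The leaf forms serine in photorespiration as well, and in sulfur-starved plants O-acetylserine accumulates while SDI1, LSU1 and APR3 are strongly induced.

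The levels below are the deposited log2 values, and differences are low CO2 minus ambient CO2 on that scale. The arrays' medians lay between 6.07 and 6.11. Low CO2 replicate 1 stood apart from its group: over the tested probe sets it correlated at 0.980 to 0.986 with the ambient arrays and at 0.962 and 0.947 with low CO2 replicates 2 and 3. Differences of the named sulfur genes are therefore given with and without it. Leaf markers RCA, CA1 and GAPA were strong, with a summed level of log2 15.49 to 15.55 on low CO2 arrays and 15.47 to 15.52 on ambient arrays, while 4 other listed leaf markers had no probe set of their own. Of 8 root markers 7 were on the array, summing to 9.07 to 9.94 on low CO2 arrays and 9.31 to 9.65 on ambient arrays, with IRT1, LRX1 and RHD6 under log2 4 on every array. The 7 vascular markers summed to 10.75 to 11.09 on low CO2 arrays and 10.94 to 10.97 on ambient arrays. These summed levels overlapped between the groups for all 3 lists, and PYK10, at 8.77 to 9.81 on low CO2 arrays and 9.06 to 9.45 on ambient arrays, made up most of the root sum. Among single markers, CA1 was higher by 0.08, and the root markers EXPA7 and COBL9 were lower by 0.45 and 0.25, with no overlap. EXPA7 (4 to 4.77 over the arrays) and COBL9 (3.91 to 4.45) lay near the filter of log2 4. The root marker IRT1, not tested, was higher without overlap, at 3.55 to 3.73 in low CO2 and 3.34 to 3.41 in ambient air. Of all tested probe sets 28.9% had no overlap. CA1, EXPA7 and COBL9 had limma adjusted p of 0.622, 0.137 and 0.279, and their part in the results below was not tested.

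Of the 10 genes, 3 had a higher and 7 a lower mean in low CO2. APR3 stood 2.04-fold higher, and the APS kinase genes APK1 and APK2 stood 1.5-fold and 1.87-fold lower. For these 3 genes every low CO2 array lay outside the range of the ambient arrays. ATPS3 and LSU1 also differed by 2.04-fold (lower) and 3.01-fold (higher), but with low CO2 replicate 1 inside the ambient range. The 95% confidence intervals of ATPS1, APR1, APR2, SIR and SDI1 included 0. In limma's fit across all probe sets, 0 of the 10 passed an adjusted p of 0.05 in either direction (0% of all tested probe sets did, higher or lower), and 5 of 10 had an unadjusted p under 0.05, 2 higher and 3 lower, against 26.1% of all tested, 13.5% higher and 12.6% lower. With 3 arrays in each group, the lack of overlap in either direction held for 3 of 10 genes, against 28.9% of all tested probe sets, 1 of them higher and 2 lower (14.6% and 14.3% of all tested), so the count of genes is near the background. Their median difference was -0.24, beside -0.03 over all tested.

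Without low CO2 replicate 1, 2 of the 10 genes passed as higher (APR3 and LSU1) and 5 as lower (ATPS3, APR2, SIR, APK1 and APK2), where 16.8% and 18.5% of all tested probe sets passed in these directions, 35.3% together. The median over the 10 was then -0.44, beside -0.05 over all tested. Dropping an array because it stood apart narrows the spread of its group, so p-values without it are likely too small. Low CO2 replicates 2 and 3 lay on the same side of all 3 ambient arrays for 8 of the 10 genes, 2 above and 6 below (28.5% and 35.1% of all tested), and replicate 1 lay within the ambient range for 6 of 10 (42.7% of all tested).

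**Figure D1:**
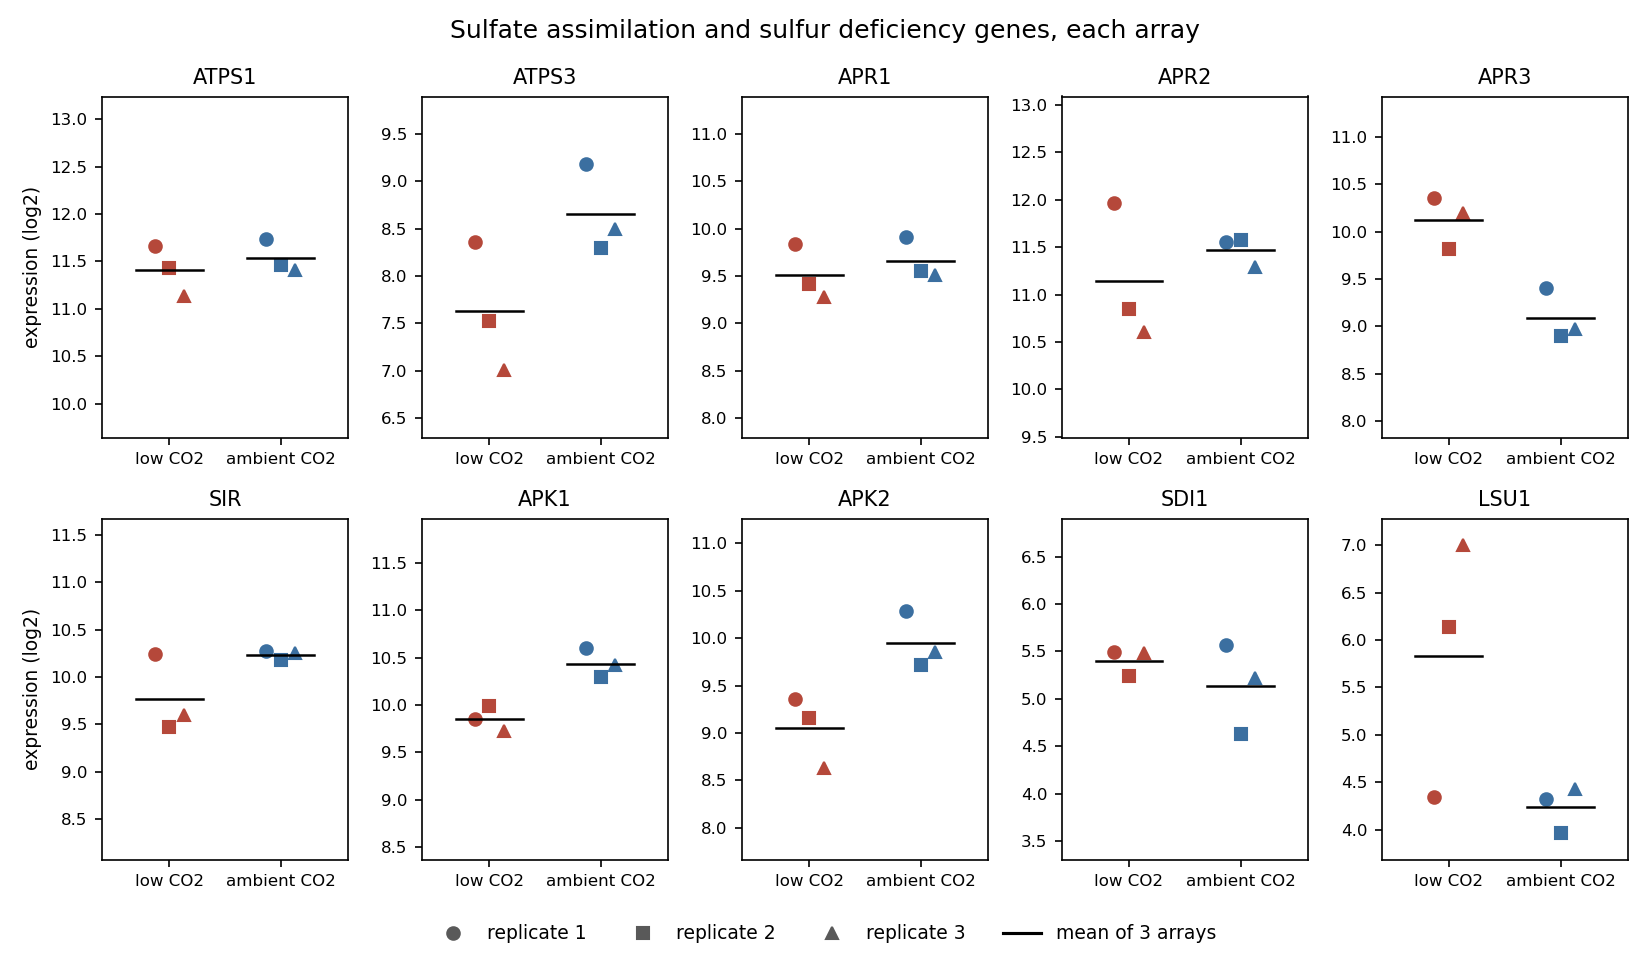
Expression (log2) of the 10 genes on each array, low CO2 at the left and ambient CO2 at the right of each panel, with symbols for replicates and a line at the mean of 3 arrays. Every panel spans the same number of log2 units around its own values, so distances, not heights, can be compared between genes. The groups are apart for APR3, APK1 and APK2, and low CO2 replicate 1 lies beside the ambient arrays for SIR and LSU1.

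The activating step was represented by ATPS1 and ATPS3, whose products make APS. ATPS1 stood at 11.66, 11.43 and 11.14 on low CO2 replicates 1, 2 and 3 and at 11.74, 11.46 and 11.41 on ambient replicates 1, 2 and 3. The groups overlapped, and the difference of -0.13 had a 95% confidence interval from -0.53 to 0.28 (limma adjusted p = 0.653). It was -0.25 without low CO2 replicate 1 (interval -0.61 to 0.10) and 0.01 without low CO2 replicate 3.

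ATPS3 covered a wider range. Its values were 8.36, 7.53 and 7.01 on the low CO2 arrays, in replicate order, against 9.18, 8.30 and 8.50 on the ambient arrays. Replicates 2 and 3 of low CO2 were below all ambient arrays, while replicate 1 lay between ambient replicates 2 and 3. The mean was 7.64 ± 0.68 in low CO2 and 8.66 ± 0.46 in ambient air (SD, n = 3 arrays each), a difference of -1.03 (SE 0.38) that did not pass over all genes (limma adjusted p = 0.159). Without low CO2 replicate 1, ATPS3 fell by 1.39 on the log2 scale, or 2.62-fold (limma adjusted p = 0.00999). With low CO2 replicate 3 left out its difference was -0.71, not past the threshold.

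The remaining ATP sulfurylase genes gave 1 lower and 1 overlapping pattern. ATPS2, known in Arabidopsis as the isoform with both a plastid and a cytosolic product, stood at 9.59, 9.06 and 8.83 in low CO2 and 9.66, 9.91 and 9.87 in ambient air, with no overlap (difference -0.65, SE 0.21, limma adjusted p = 0.137). ATPS2 fell by 0.87 without low CO2 replicate 1 (limma adjusted p = 0.00421). ATPS4 differed by 0.19 (SE 0.14), with overlapping groups, and by 0.20 without that array (limma adjusted p = 0.347).

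The APS reductases catalyse the step held to exert most control over the reducing branch, and their genes differed from each other. APR3 stood at 10.35, 9.82 and 10.20 on the low CO2 arrays and at 9.40, 8.90 and 8.97 on the ambient arrays. All low CO2 values were above all ambient values, and replicate 1 had the highest of them. The means were 10.12 ± 0.27 in low CO2 and 9.09 ± 0.27 in ambient air (SD, n = 3 arrays each), which gives a difference of 1.03 (SE 0.19, interval 0.57 to 1.49). This difference had the smallest unadjusted p of the 10 genes, 0.00121 in limma's fit, and an adjusted p of 0.115. APR3 thus differed by more than the spread within either group but did not pass over all probe sets. It was 0.92 without low CO2 replicate 1, where APR3 rose (limma adjusted p = 0.0111), and 0.92 to 1.19 over the 6 fits that each left out an array.

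APR2, the isoform known to provide most APS reductase activity in Arabidopsis leaves, split the low CO2 arrays. It stood at 11.97 on low CO2 replicate 1, above every ambient array, and at 10.85 and 10.61 on replicates 2 and 3, below every ambient array. The ambient values were 11.55, 11.58 and 11.29. The mean difference of -0.33 (SE 0.34, interval -1.15 to 0.48) therefore averaged low CO2 arrays that lay on opposite sides of the ambient ones (limma adjusted p = 0.554). Without low CO2 replicate 1, APR2 fell by 0.75, or 1.68-fold (limma adjusted p = 0.00807). With low CO2 replicate 3 left out the difference was -0.06.

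APR1 stood at 9.84, 9.42 and 9.28 in low CO2 and at 9.91, 9.55 and 9.51 in ambient air. Replicates 2 and 3 of low CO2 lay below the ambient arrays by little, and replicate 1 was among them. The difference was -0.14 (SE 0.19, interval -0.59 to 0.30) with all arrays and -0.31 without low CO2 replicate 1 (interval -0.67 to 0.05, limma adjusted p = 0.155), so neither passed.

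A constant added to all log2 values of an array leaves a difference between genes on that array unchanged, though other normalization can change it. Set to 0 at the ambient mean, APR3 minus APR1 was 1.07, 0.97 and 1.49 on low CO2 replicates 1, 2 and 3 and lay between -0.08 and 0.06 on the ambient arrays. APR3 was thus higher relative to APR1 on all 3 low CO2 arrays, replicate 1 included. APR2 minus APR3 was -0.76, -1.35 and -1.97 on the low CO2 arrays and between -0.24 and 0.29 on the ambient arrays. These values are given as a description with no test, since the smallest p that exact permutation of 3 against 3 arrays allows is 0.1.

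SIR is the gene of sulfite reductase, which completes the reduction to sulfide. It stood at 10.24, 9.47 and 9.60 on the low CO2 arrays and at 10.27, 10.18 and 10.25 on the ambient arrays. The ambient values spanned 0.08, low CO2 replicate 1 fell inside that span, and replicates 2 and 3 lay well under it. The difference was -0.46 (SE 0.21, interval -0.96 to 0.03, limma adjusted p = 0.208). SIR fell by 0.70, or 1.62-fold, in the fit without low CO2 replicate 1 (limma adjusted p = 0.00433). SIR minus ATPS1 on the same array was -0.12, -0.65 and -0.24 on the low CO2 arrays and -0.17 to 0.15 on the ambient arrays, which overlap.

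**Figure D2:**
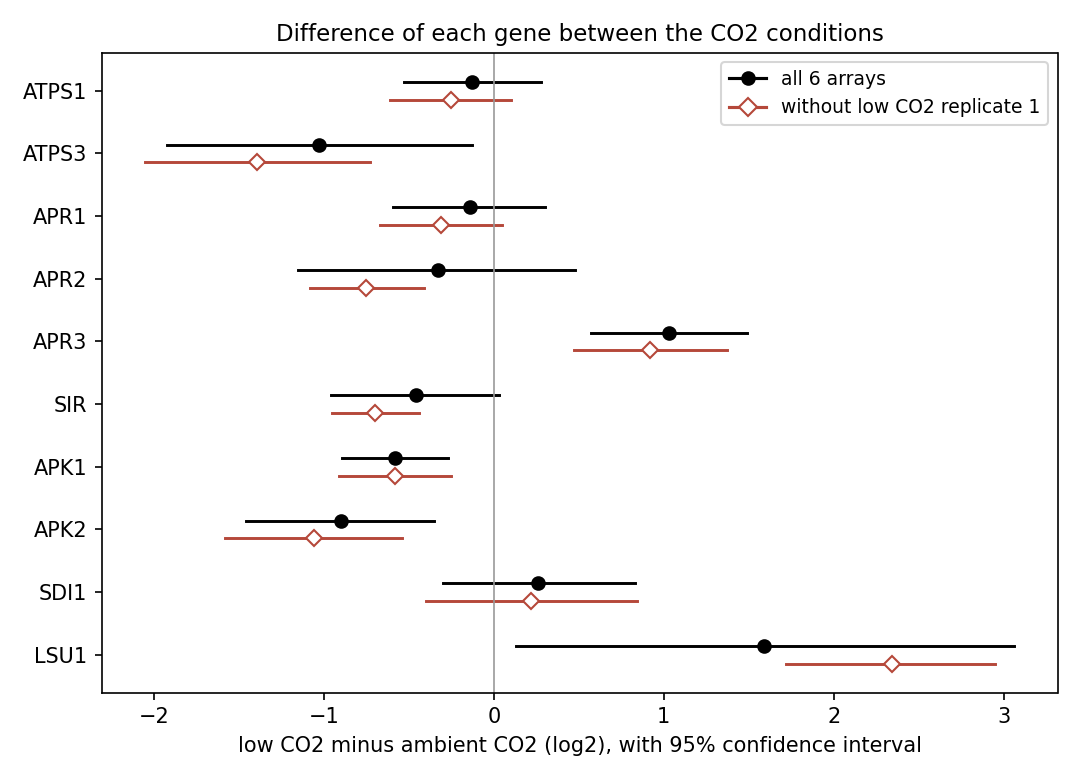
Difference of each gene, low CO2 minus ambient CO2 (log2), with its 95% confidence interval from limma, for all 6 arrays (filled circles) and without low CO2 replicate 1 (open diamonds). The intervals with all arrays lie on 1 side of 0 for APR3, LSU1, ATPS3, APK1 and APK2, and those of APR2 and SIR do so without replicate 1.

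The APS kinases open the branch to PAPS, and both were lower on every low CO2 array. APK1, a plastid isoform, stood at 9.85, 9.99 and 9.73 in low CO2 and at 10.60, 10.29 and 10.42 in ambient air. Its means were 9.86 ± 0.13 in low CO2 and 10.44 ± 0.15 in ambient air (SD, n = 3 arrays each), and the difference of -0.58 (SE 0.13, interval -0.89 to -0.27) was the same without low CO2 replicate 1. The limma adjusted p of APK1 was 0.118 with all arrays and 0.0191 without that one.

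APK2, another plastid isoform, stood at 9.36, 9.16 and 8.63 in low CO2 and at 10.29, 9.72 and 9.85 in ambient air. The groups did not overlap, and low CO2 replicate 3 was lowest. Its difference was -0.90 (SE 0.23, interval -1.46 to -0.35, limma adjusted p = 0.126). With low CO2 replicate 1 left out, APK2 fell by 1.06, or 2.09-fold (limma adjusted p = 0.0111). Low CO2 replicate 1 lay 0.59 below the ambient mean for both APK1 and APK2.

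The other APS kinase genes had groups that overlapped. APK3, the cytosolic isoform, differed by -0.35 (SE 0.17, limma adjusted p = 0.236) and APK4 by -0.32 (SE 0.20, limma adjusted p = 0.332). Neither passed without low CO2 replicate 1, where APK3 differed by -0.41 (limma adjusted p = 0.119) and APK4 by -0.17 (limma adjusted p = 0.490).

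The APS reductase and APS kinase genes were also compared within arrays, without SIR. The mean of APR1, APR2 and APR3 minus the mean of APK1 and APK2, set to 0 at the ambient mean, was 1.23, 0.58 and 0.97 on low CO2 replicates 1, 2 and 3 and -0.04, 0.13 and -0.09 on ambient replicates 1, 2 and 3. It was positive on all 3 low CO2 arrays and largest on replicate 1. On that array APR1, APR2 and APR3 lay above their ambient means by 0.18, 0.50 and 1.26. From their ambient means, APK1 lay at -0.59, -0.45 and -0.71 and APK2 at -0.59, -0.80 and -1.32 on low CO2 replicates 1, 2 and 3. On replicates 2 and 3, APR3 lay above its ambient mean by 0.73 and 1.11. APR1 lay at -0.24 and -0.38 and APR2 at -0.63 and -0.87 from theirs on these arrays. ATPS1 minus ATPS3 was 0.43, 1.02 and 1.26 on the low CO2 arrays and between -0.32 and 0.28 on the ambient arrays. APK1 minus APK2 was 0.00, 0.35 and 0.62 on the low CO2 arrays against -0.18 to 0.09 on the ambient arrays, with overlap.

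**Figure D3:**
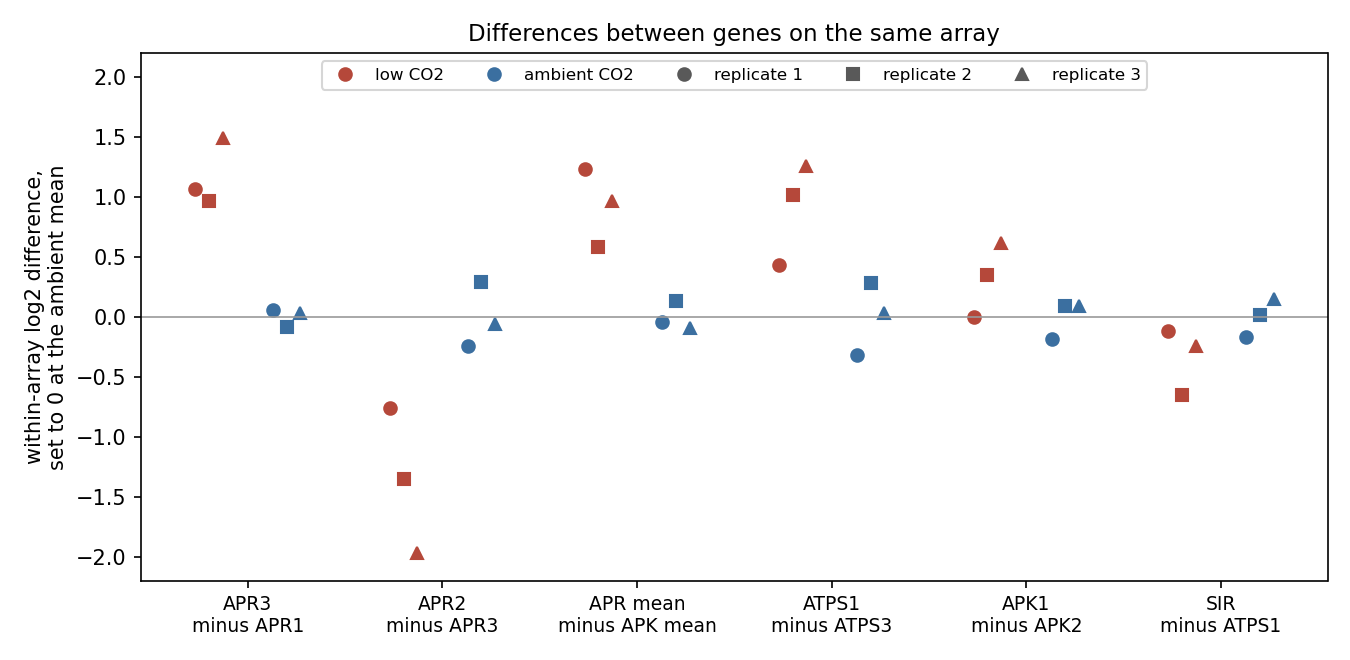
Log2 difference between named genes, or between gene means, on the same array, set to 0 at the mean of the ambient arrays (low CO2 left, ambient CO2 right in each pair, symbols for replicates). APR3 minus APR1 is 0.97 or above on the low CO2 arrays and within 0.08 of 0 on the ambient arrays, and the values for SIR minus ATPS1 overlap.

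SDI1 and LSU1 are widely used as markers of sulfur deficiency, and here they differed in pattern. SDI1, whose product is known to restrain glucosinolate synthesis when sulfur is short, stood at 5.49, 5.24 and 5.48 in low CO2 and at 5.57, 4.63 and 5.22 in ambient air. The groups overlapped, with the highest and the lowest values both in ambient air. Its difference of 0.26 (SE 0.24) had an interval from -0.30 to 0.83 (limma adjusted p = 0.499), and it was 0.22 without low CO2 replicate 1 (interval -0.40 to 0.84), 0.01 without ambient replicate 2 and 0.48 without ambient replicate 1.

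LSU1, a small coiled-coil protein induced by sulfur shortage and other stresses, stood at 4.34, 6.14 and 7.0 on low CO2 replicates 1, 2 and 3 and at 4.32, 3.96 and 4.43 on the ambient arrays. Replicate 1 was at the ambient level and the other low CO2 arrays were well above it. LSU1 differed by 1.59 (SE 0.62, interval 0.13 to 3.06, limma adjusted p = 0.171), with an SD of 1.36 over the low CO2 arrays and 0.24 over the ambient arrays. Without low CO2 replicate 1, LSU1 rose by 2.34, or 5.05-fold (limma adjusted p = 0.00178). Leaving out low CO2 replicate 3 instead gave a difference of 1.01. The ambient side lay near the filter of log2 4, where GCRMA draws weak signals together and a fold can be understated.

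The paralogs of these markers did not follow LSU1. LSU3, the direct neighbour of LSU1 in the RefSeq gene table, had no probe set of its own, and how far its transcript binds the LSU1 probes is not known here. LSU2 stood at 8.85, 8.02 and 7.87 in low CO2 and 9.15, 8.84 and 8.59 in ambient air, a difference of -0.61 (SE 0.28, limma adjusted p = 0.217). LSU2 fell by 0.91 in the fit without low CO2 replicate 1 (limma adjusted p = 0.00871), in which LSU1 rose. LSU4, the neighbour of LSU2, differed by -0.02 (SE 0.14) and SDI2, the paralog of SDI1, by 0.00 (SE 0.25), and both had overlapping groups. With low CO2 replicate 1 left out these were -0.01 for LSU4 and -0.11 for SDI2, and neither passed.

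Paralogs included, other genes known to be induced by sulfur shortage or O-acetylserine gave 0 calls among 5 tested with all arrays and 1 without low CO2 replicate 1, the fall of LSU2. Of all tested probe sets 0% passed with all arrays and 35.3% without that one. SHM7, a serine hydroxymethyltransferase-like gene, stood at 8.81, 8.63 and 8.70 in low CO2 and at 8.54, 7.87 and 7.79 in ambient air. All low CO2 values were above the ambient ones, by 0.65 on average (SE 0.21, limma adjusted p = 0.140), and the difference of SHM7 was 0.60 without low CO2 replicate 1 (limma adjusted p = 0.0792). GGCT2;1, a glutathione-degrading cyclotransferase gene, differed by 0.24 (SE 0.18) with overlap, and by 0.12 with that array left out. BGLU28, a β-glucosidase gene, was at 3.53 to 3.81 on all 6 arrays, under the filter, and was not tested.

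Around the pathway, 49 further genes were listed, of which 47 were on the array and 44 were tested. With all arrays 0 passed limma over all genes in either direction, 16 had an unadjusted p under 0.05 (5 higher and 11 lower, where 13.5% and 12.6% of all tested did so), and 15 had groups that did not overlap, 4 of them higher and 11 lower (14.6% and 14.3% of all tested). The fit without low CO2 replicate 1 passed 5 as higher and 14 as lower (16.8% and 18.5% of all tested). The median difference was -0.14 with all arrays and -0.17 without that one.

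Genes that carry or use PAPS or clear its product had lower means in low CO2 in all 5 tested, with a median of -0.95. Of the 16210 tested probe sets 8718 had a lower mean, and the median over all was -0.03. With all arrays 0 of the 5 passed, and 4 had an unadjusted p under 0.05, all lower, as did 12.6% of all tested probe sets. Without low CO2 replicate 1, 4 passed as lower, as did 18.5% of all tested probe sets. SOT17, a desulfoglucosinolate sulfotransferase gene, stood at 8.32, 7.88 and 7.73 in low CO2 and at 9.32, 9.01 and 9.17 in ambient air. The groups did not overlap, with a difference of -1.19 (SE 0.18) that did not pass with all arrays (limma adjusted p = 0.0973). With low CO2 replicate 1 left out, SOT17 fell by 1.36 (limma adjusted p = 0.00116). SOT16, a related sulfotransferase gene, differed by -0.95 (SE 0.21, limma adjusted p = 0.118), also without overlap. SOT16 fell by 1.12 with replicate 1 left out (limma adjusted p = 0.00508). SOT18, its neighbour in the RefSeq gene table, had no overlap but differed by only -0.25 (SE 0.11, limma adjusted p = 0.188). With replicate 1 left out SOT18 was at -0.27 and did not pass (limma adjusted p = 0.1).

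SAL1, which encodes the phosphatase that removes the PAP left by sulfotransferases, stood at 9.46, 8.50 and 8.58 in low CO2 and at 9.90, 9.81 and 9.78 in ambient air. Every low CO2 array was below the ambient arrays, replicate 1 by the least. The difference of SAL1 was -0.98 (SE 0.25, limma adjusted p = 0.127). SAL1 fell by 1.29 in the fit without low CO2 replicate 1 (limma adjusted p = 7.09e-04).

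Cysteine synthesis genes went both ways. SERAT2;1, a plastid serine acetyltransferase gene whose product makes O-acetylserine, stood at 10.13, 11.47 and 11.64 in low CO2 and at 9.81, 9.83 and 9.77 in ambient air. All low CO2 arrays were above the ambient ones, replicate 1 by 0.32 and the others by far more. SERAT2;1 differed by 1.28 (SE 0.38, limma adjusted p = 0.136) and rose by 1.75 with low CO2 replicate 1 left out (limma adjusted p = 2.39e-04). The O-acetylserine (thiol) lyase genes OASB of plastids and OASC of mitochondria were lower with no overlap, by -0.40 (SE 0.13) and -0.70 (SE 0.17). Neither passed with all arrays (limma adjusted p = 0.140 for OASB and 0.120 for OASC), and both fell without low CO2 replicate 1, by 0.50 and 0.84. Of the 9 genes tested for cysteine and glutathione synthesis, 2 passed as higher and 2 as lower without that array, where 16.8% and 18.5% of all tested probe sets did so.

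Of 12 sulfate transporter genes on the array 10 were tested, with a median difference of -0.05. SULTR3;3 stood at 6.36, 6.50 and 6.34 in low CO2 and at 6.82, 6.93 and 6.70 in ambient air (difference -0.42, SE 0.12, limma adjusted p = 0.132). SULTR4;2, a vacuolar sulfate exporter gene, was higher on all low CO2 arrays, by 0.36 (SE 0.13, limma adjusted p = 0.159). SULTR3;5 differed by -0.39 (SE 0.22) with overlapping groups. The root uptake gene SULTR1;1 was at 3.69 to 3.99 on all arrays and was not tested. In the fit without low CO2 replicate 1, SULTR4;2 passed as higher at 0.45 (limma adjusted p = 0.0265), and 2 transporter genes as lower, SULTR3;3 at -0.40 (limma adjusted p = 0.0432) and SULTR3;5 at -0.64 (limma adjusted p = 0.0084). Of all tested probe sets 16.8% passed as higher and 18.5% as lower in that fit, so these counts are near the background.

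**Figure D4:**
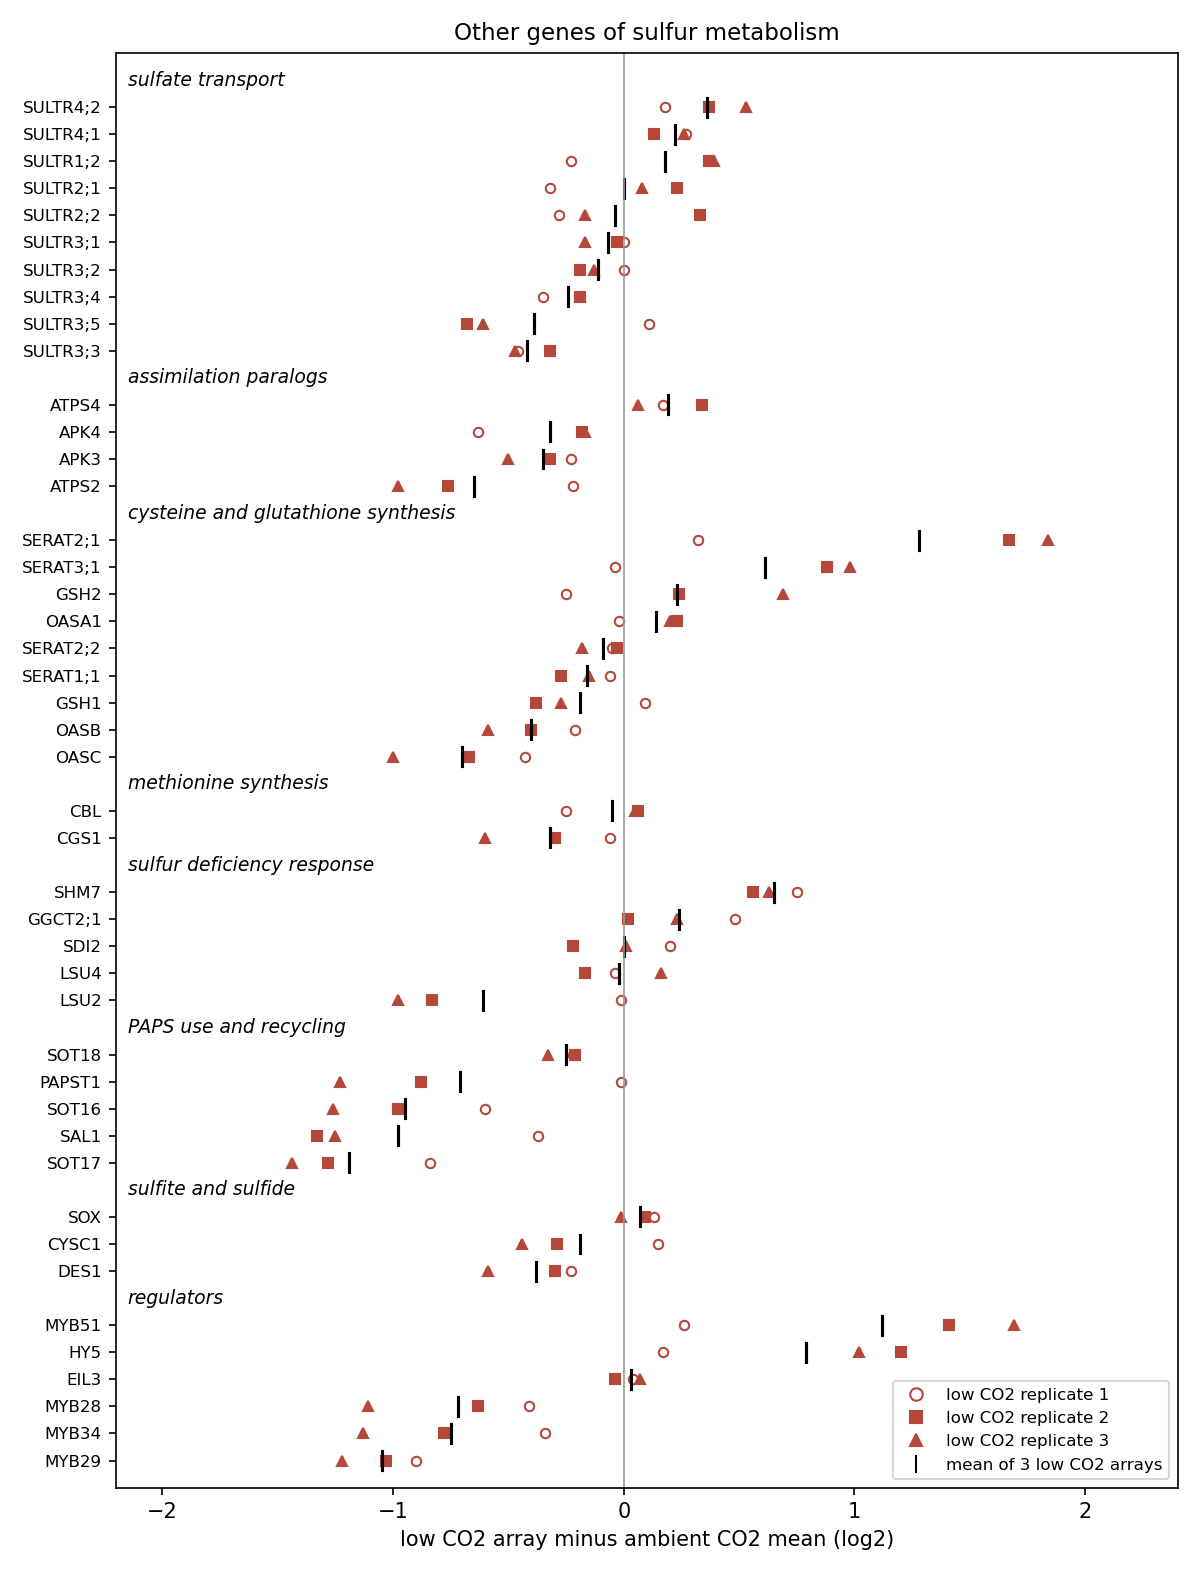
Each low CO2 array minus the ambient CO2 mean (log2) for the 44 tested genes around the pathway, grouped by role and ordered by their mean (black tick), with open circles for low CO2 replicate 1. SERAT2;1 at 1.28 and MYB51 at 1.12 have the highest means, and SOT17 at -1.19 and MYB29 at -1.05 the lowest.

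Regulators went both ways as well. Of 6 tested, 0 passed with all arrays. In that limma fit 2 had an unadjusted p under 0.05 as higher and 3 as lower, against 13.5% and 12.6% of all tested probe sets. Without low CO2 replicate 1, 2 passed as higher and 3 as lower, against 16.8% and 18.5% of all tested. EIL3, the sulfur-limitation transcription factor also called SLIM1, stood at 7.05, 6.97 and 7.08 in low CO2 and at 6.88, 7.18 and 6.95 in ambient air, with a difference of 0.03 (SE 0.12) and of 0.02 without low CO2 replicate 1. EIL3 thus showed no difference beyond its spread, and it was named here after its values were seen. The glucosinolate regulators MYB29 and MYB34 were lower without overlap, with 7.65, 7.51 and 7.32 for MYB29 in low CO2 against 8.29, 8.72 and 8.63 in ambient air. The difference was -1.05 for MYB29 (SE 0.15, limma adjusted p = 0.0973) and -0.75 for MYB34 (SE 0.22, limma adjusted p = 0.136). With replicate 1 left out MYB29 fell by 1.13 (limma adjusted p = 0.00303) and MYB34 by 0.96 (limma adjusted p = 0.007). MYB51 stood at 5.12, 6.28 and 6.55 in low CO2 and at 5.27, 4.61 and 4.71 in ambient air, so replicate 1 lay among the ambient arrays (difference 1.12, SE 0.38, limma adjusted p = 0.146). MYB51 rose by 1.55 without replicate 1 (limma adjusted p = 0.00294). HY5 and MYB28, also named after their values were seen, had overlapping groups. HY5 differed by 0.79 (SE 0.27, limma adjusted p = 0.147) and rose by 1.11 without replicate 1 (limma adjusted p = 0.00261). For MYB28 the difference was -0.72 (SE 0.25, limma adjusted p = 0.148), and -0.87 without replicate 1 (limma adjusted p = 0.0304).

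The last genes listed act after cysteine or at the edges of the pathway. CGS1, the first enzyme of methionine synthesis, differed by -0.32 (SE 0.15, limma adjusted p = 0.233), and CBL, the next one, by -0.05 (SE 0.13). The sulfite oxidase gene SOX differed by 0.07 (SE 0.11), the β-cyanoalanine synthase gene CYSC1 by -0.19 (SE 0.19) and the cysteine desulfhydrase gene DES1 by -0.38 (SE 0.22). None of these 5 passed with all arrays, and 1, CGS1, fell without low CO2 replicate 1 (by 0.45, limma adjusted p = 0.0330). Of all tested probe sets 35.3% passed without that array, and 18.5% of all tested passed as lower. In that fit CBL differed by 0.06, SOX by 0.04, CYSC1 by -0.37 and DES1 by -0.45, and none of them passed.

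For SDI1 and APR2 the probe sets with the most similar course over the 6 arrays were sought, by the root mean square difference of values centred on each probe set's own mean. For APR2 they were PDIL1-3, AT3G16530, AT4G21890, AT1G01320 and QUA3, at 0.077, 0.092, 0.099, 0.103 and 0.117. For SDI1 they were AT4G16150, AT2G23200, AT3G09490, PAP28 and EIL1, at 0.098, 0.108, 0.115, 0.116 and 0.117. With 6 arrays and 16210 probe sets, such likeness is a description only.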

How the data were processed

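Expression was measured on Affymetrix arrays with biotin-labelled cRNA from leaf RNA, per the labels' protocols. Per the submitters' processing notes, the authors used GCRMA to make the deposited log2 values. GCRMA corrects background, normalizes between arrays and summarizes probes, so weak signals lie near a common lower level. The log base was read from the values, and the sources used here do not give GCRMA's version or the annotation behind the probe grouping, so coordinates are left out. The RefSeq gene table of TAIR10.1 gave the names and held all 81 listed loci.

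The labels gave groups and replicate numbers. Probe sets that reached log2 4 on 3 or more arrays were fitted in limma 3.58.1 (R 4.3.3, lmFit and eBayes, 2-sided, no covariate, Benjamini-Hochberg adjustment over 16210 probe sets, threshold 0.05), and intervals are at 95%. The fit was tested on simulated data. The number of arrays limits the precision. The genes and lists were chosen with earlier results of these data known. Named were all 10 genes, their paralogs, the 3 with the smallest p in each list, and the 5 most similar to SDI1 and to APR2. LSU3 and SERAT3;2 had no probe set, and SULTR1;1, BGLU28, SOT18, EIL3, HY5, MYB28 and markers were named beside the rule. Other settings tried were no filter, a floor of log2 5, trend and robust eBayes, quantile normalization, centring on medians, a block for the replicate number, weights for arrays and each array left out. Array weights estimated gene by gene were added after seeing the data. Deviations of same-numbered arrays from their group means correlated at -0.19, 0.02 and -0.20 for replicates 1, 2 and 3. Those of differently numbered arrays ran from -0.35 to 0.3. With 3 arrays in each group, and low CO2 replicate 1 apart, this cannot show whether the numbers pair the samples. Figures were drawn with matplotlib 3.10.9.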

Additional observations from a re-analysis of the deposited data

How the results depend on the processing

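Settings tried were no filter, a floor of log2 5, trend and robust eBayes, quantile normalization, centring on medians and the replicate number as a block. In each, limma called 0 probe sets, 0 of the 10 genes and 0 of the other sulfur genes in either direction. SOT18, HY5 and MYB28 were not followed singly over the settings. The differences of the other named sulfur genes tested in each kept their direction except EIL3, at -0.01 with quantile normalization and with centring. Probe sets with an unadjusted p under 0.05 numbered 4236 in the fit as reported, 4765 with no filter, 3714 at a floor of log2 5 (which removed LSU1 and SULTR4;2), 4203 with trend and robust, 4286 and 4322 with quantile normalization and centring, and 3223 with the replicate block, of which 5 of the 10 genes in each except 4 at the higher floor. The median of the 10 genes was -0.24 with the replicate block, and it ran from -0.44 to -0.05 when arrays were left out. At the floor of log2 5, which removed LSU1, the median of the remaining genes was -0.33. Leaving out low CO2 replicate 1 was the 1 omission of 6 that gave any call: counts over the omissions ran from 0 to 2722 probe sets higher and 0 to 3001 lower, 0 to 2 and 0 to 5 of the 10 genes, and 0 to 5 and 0 to 14 of the other sulfur genes. The other 5 omissions gave 2034 to 3972 probe sets at an unadjusted p under 0.05. Array weights gave 4798 probe sets higher and 5573 lower, 2 and 5 of the 10 genes, and 10 and 18 of the other sulfur genes. That estimate stopped short of its tolerance and gave low CO2 replicate 2 a weight of 40.38 and replicate 1 one of 0.12. Weights estimated gene by gene (0.18 for replicate 1) gave 3899 higher and 4353 lower, 2 and 5 of the 10, and 7 and 16 of the others. Differences near 0 changed sign: CBL was at 0.01 and 0.00 under these weights and ran from -0.10 to 0.06 over the omissions, ATPS1 ran from -0.25 to 0.01, SDI2 from -0.19 to 0.27 and LSU4 from -0.11 to 0.06. EIL3 was at -0.04 and -0.03 under the weights and ran from -0.04 to 0.11 over the omissions. Over the 14 settings APR3 ran from 0.82 to 1.19, APK1 from -0.65 to -0.42 and APK2 from -1.06 to -0.69, each called in 3.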
